A study of Mus musculus with 160 samples.

Results

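The nuclear genes for subunits of the mitochondrial respiratory chain were followed through the formation of blood progenitors from induced endothelial cells. Members were chosen by name alone. A row of the expression table was taken when its gene name began with Nduf and one of the letters a, b, c, s or v and a digit, with Uqcr, with Cox and a digit from 4 to 8, or with Atp5, or when it was Sdha, Sdhb, Sdhc or Sdhd. This gave 84 of the 23420 genes of the table, 37 in complex I, 4 in complex II, 8 in complex III, 18 in complex IV and 17 in complex V. The name rule also takes a few genes whose place in a complex is less simple, such as Ndufa4, now counted with complex IV by many workers, and Atp5s and Atp5sl, which are named after ATP synthase but are not among its subunits. They were kept under their names. No member was chosen by its level.

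The respiratory chain sits in the inner mitochondrial membrane. Complexes I and II take electrons from NADH and succinate, complex III passes them to cytochrome c and complex IV to oxygen, while complexes I, III and IV pump protons whose return through complex V drives ATP synthesis. Most subunits are encoded in the nucleus, but complexes I, III, IV and V each need subunits made from mitochondrial DNA, of which the table held 0 genes. Endothelial cells and early blood stem cells are known for relying largely on glycolysis, and a greater use of respiration is a known feature of blood progenitors that leave quiescence.

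Each value came from the polyA RNA of 1 sorted mouse cell of the C57BL/6 background. The 160 cells comprised 65 induced hemogenic endothelial cells (iHECs) and induced hematopoietic progenitor cells (iHPCs) sorted on day 14 (21 cells), day 17 (18 cells) and day 21 (56 cells), which are days 3, 6 and 10 of maturation on the stromal feeder line OP9-DL1. According to the study's methods the cells were derived from embryonic stem cells in which doxycycline switches on Runx1 and Hoxa9 together, so that all groups shared the transgenes and none was an untreated control. The labels do not say for a given cell whether an embryonic or an induced pluripotent stem cell line was used. Sort gates differed between the groups. The iHECs were CD31+ and c-kit+ with high CD201, low CD41 and no CD45, the iHPCs of the first pair of days carried CD45 and lacked a lineage panel, and those sorted last were CD45+ Ter119- with c-kit and CD127. Day, gate and culture step therefore cannot be told apart. Since no animal, culture or repeat is given in the labels, each group counted as 1 sample, and no test was run. The SD and the ranges below are between cells of a group and say nothing about repeat experiments.

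Values are TPM, which correct for transcript length and have about the same total in every cell, so a summed TPM is a share of the transcripts of a cell and not an amount. The cells differed in how many genes were found above 1 TPM, with a median of 4926 among iHECs (range 3309 to 7533), of 8200 at day 14 (range 3103 to 9333), of 8101 for day 17 (range 6536 to 9658) and of 6695.5 for day 21 (range 3188 to 7950). Endothelial markers (8 genes) summed to a median of 2217 TPM in iHECs and 53.1 TPM in day-21 iHPCs, and pan-leukocyte markers (6 genes) to 61.9 and 5136 TPM. In 6 cells the pan-leukocyte sum stood apart from the rest of the group, on the other side of 1000 TPM. The pan-leukocyte sum was 1983 to 2473 TPM in 3 iHECs, where it was at most 760 TPM in the others, and 18.4 to 65.4 TPM in 2 day-14 iHPCs and 1 day-17 iHPC, where it was at least 1293 TPM in the others. The endothelial sum was at most 473 TPM in any day-14 and 520 TPM in any day-17 iHPC. Without these 6 cells the mean differences of the members given below were 0.49, -0.16 and 0.14 for the 3 steps in time. Stromal markers summed to at most 48.5 TPM in any cell, with a median of 0 in every group.

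The members were expressed in nearly every cell. Of the 84, 40 were above 1 TPM in all 160 cells and 73 in at least 90% of cells, and the median cell had 76, 79, 78.5 and 76 members above 1 TPM in iHECs and the iHPC groups in order of time. The tissue-restricted complex IV genes Cox7b2, Cox8b and Cox8c, were listed at 0 in every cell. A filter on low values, above 1 TPM in more than 30 cells, was passed by 80 members, the fourth to miss it being Ndufa4l2. Of the 83 members placed in the annotation, 16 had an exon that overlaps an exon of another coding gene, and the sources do not say whether reads were counted by strand.

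Together the members made up a median of 3.86% of the transcripts of an iHEC and 4.98% of those of a day-21 iHPC. The summed TPM of the 84 genes was 38550 in the median iHEC (25468 to 64188), 48061 at day 14 (40217 to 71575), 41927 at day 17 (26965 to 52607) and 49576 at day 21 (33932 to 87624). All groups overlapped. The increase was not shared evenly by the complexes.

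Complex V, the ATP synthase, had the widest gap of the 5 complexes between the medians of iHECs and day-14 iHPCs. Its 17 genes summed to 8414 TPM in the median iHEC (4970 to 13258), 14653 at day 14 (13083 to 17863), 13532 at day 17 (10399 to 16028) and 14326 at day 21 (9469 to 23700). The iHEC and day-14 ranges met only between 13083 and 13258 TPM. Complex I, the largest group, showed no such step, with 15911 TPM in the median iHEC (8090 to 30748), 14798 at day 14 (11561 to 22998), 12830 at day 17 (7054 to 16203) and 16030 at day 21 (11925 to 29371). Complex IV was in between, with medians of 7612, 11196, 8661 and 11082 TPM in the same order. Complex III took 4757, 5597, 4812 and 5598 TPM, and complex II 1625, 1943, 2017 and 2208 TPM, and in both all groups overlapped. By the mean of log2(TPM + 1), the median difference from iHECs to day 14 was 0.96 over complex V members. It was 0.93 over all 9674 genes that passed the filter, so complex V was close to the median gene.

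**Figure D1:**
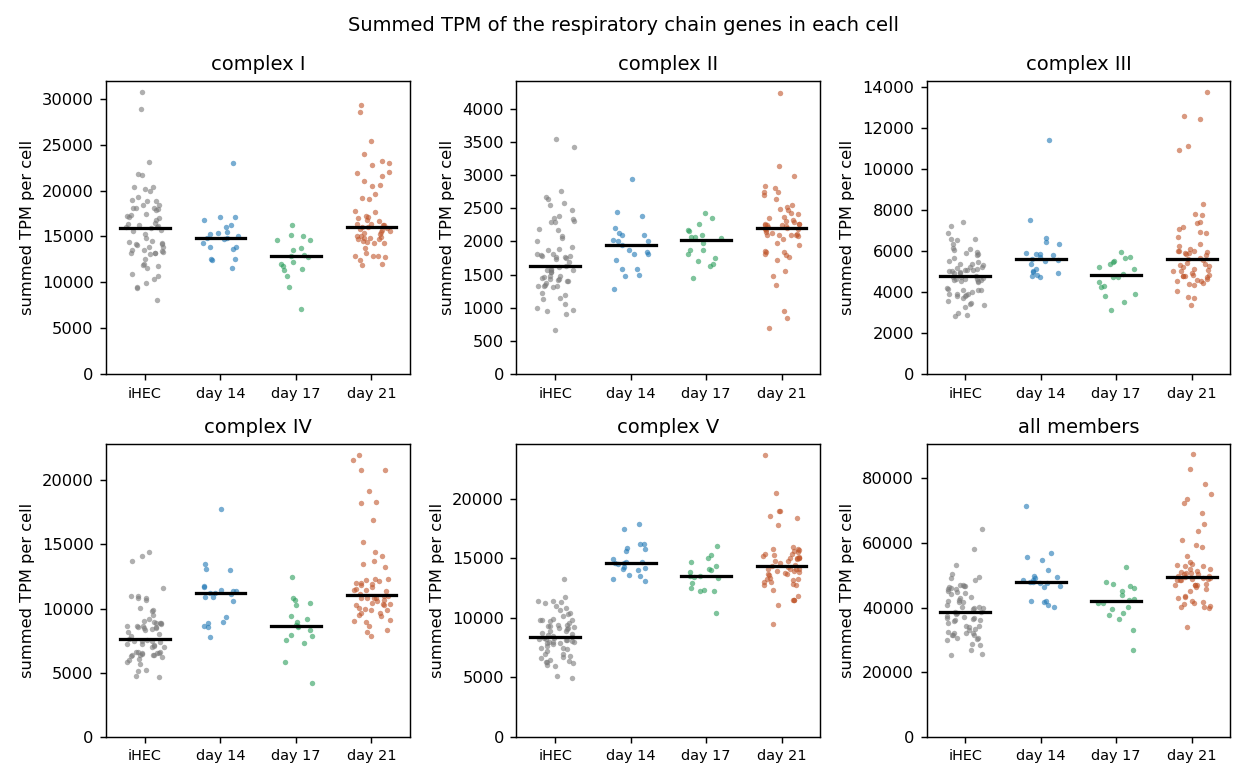
Summed TPM of the members of each complex in every cell (y axis, TPM, from 0), by group (x axis), 1 point per cell, with the group median as a bar. For complex V the iHECs lie between 4970 and 13258 TPM and the day-14 iHPCs between 13083 and 17863 TPM, while for complex I the iHEC and day-14 medians are 15911 and 14798 TPM.

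The ratio of complex V to complex I within a cell does not depend on how the cell was scaled. It was 0.563 in the median iHEC (0.325 to 0.971), 0.980 at day 14 (0.777 to 1.23), 1.07 at day 17 (0.888 to 1.47) and 0.880 at day 21 (0.585 to 1.08). Every iHPC lay above the iHEC median. The highest iHEC was exceeded by 12 of 21 cells at day 14, 16 of 18 at day 17 and 13 of 56 at day 21. The day-14 median was 1.74 times and the day-21 median 1.56 times that of iHECs.

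Complex IV over complex I was also lowest in iHECs, with medians of 0.482 in iHECs (0.345 to 0.910), 0.741 at day 14 (0.631 to 0.826), 0.702 at day 17 (0.592 to 0.776) and 0.700 at day 21 (0.458 to 1.02). Complex III over complex I differed less, 0.315, 0.392, 0.375 and 0.343. Complex II over complex I was 0.113, 0.131, 0.148 and 0.142, with iHECs spread from 0.0231 to 0.200.

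The ratio of complex V to complex I was also computed without Atp5a1 and Atp5b, the genes of the alpha and beta subunits. Its medians then were 0.455, 0.715, 0.720 and 0.706, and 14 of 21, 17 of 18 and 34 of 56 iHPCs lay above the highest iHEC. With only transcripts under 1000 bases, 10 of complex V and 25 of complex I, the medians were 0.427, 0.708, 0.708 and 0.679. Within a group the ratio was higher in cells with more genes above 1 TPM, with Pearson's r of 0.35 over 65 iHECs and 0.60 over 56 day-21 iHPCs, as a description of cells from 1 sample each. In cells with at least 5000 genes above 1 TPM (31 iHECs, 20, 18 and 48 iHPCs), the medians were 0.582, 0.988, 1.07 and 0.916. The part of the number of genes found in this difference was not tested.

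**Figure D2:**
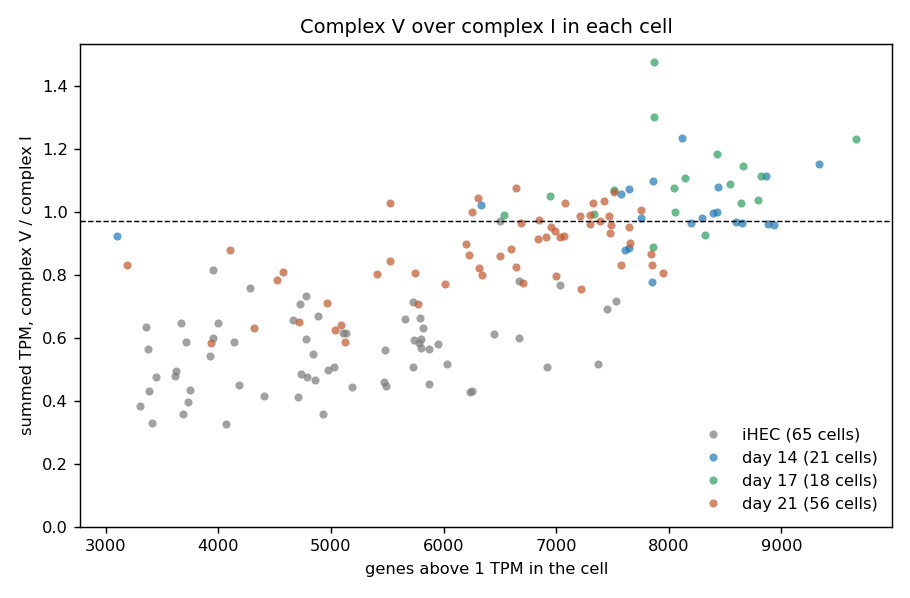
Summed TPM of complex V divided by that of complex I (y axis, no unit, from 0) against the number of genes above 1 TPM (x axis) in each of the 160 cells, coloured by group, with a dashed line at the highest iHEC (0.971). Day-14 and day-17 iHPCs lie between 0.777 and 1.47 and the median iHEC at 0.563.

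Within complex V, the F1 part is the catalytic head that makes ATP. Its 5 members, the genes of subunits alpha to epsilon, all had a higher mean of log2(TPM + 1) at day 14 than in iHECs, by 0.78 for Atp5e to 2.01 for Atp5b. Of all genes that passed the filter 74.03% were higher too. Their median difference was 0.93, above that of Atp5e. Atp5b (ENSMUSG00000025393.12, chr10:128083273-128090391 of GRCm38, plus strand), the gene of the catalytic beta subunit, was at 869 TPM in the median iHEC (0.847 to 2567), 2796 TPM at day 14 (1400 to 3428), 2966 TPM at day 17 (1889 to 3676) and 1927 TPM at day 21 (492 to 3345). The day-14 and day-17 cells were tight, with an SD of 0.28 and 0.23 on the log2 scale against 1.58 in iHECs. The mean difference from day 17 to day 21 was -0.72.

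The membrane part and stalks of complex V (10 members) had a mean difference of 0.71 from iHECs to day 14, below the median of 0.93 over all 9674 genes that passed the filter, and the F1 part one of 1.31, above it. The subunit c genes of the membrane part had a mean difference close to that of the F1 part, 1.3. Outside the subunit c genes, Atp5j, the gene of coupling factor 6, was at 858 TPM in the median iHEC. It was at 780, 698 and 1039 TPM in the iHPC groups in order of time, with a difference of -0.13 from iHECs to day 14. Atp5h, the gene of stalk subunit d, was also lower by its mean at day 14 (-0.70), where 1 of 21 cells was listed at 0 and the medians were 768 and 649 TPM. Atp5k, the gene of subunit e, was among the members with the lowest differences from day 14 to day 17 (-0.82), at 358 and 246 TPM.

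Subunit c, which forms the rotating ring of ATP synthase, is encoded by Atp5g1, Atp5g2 and Atp5g3, whose precursors end in the same mature protein. The ends of their coding sequences (GENCODE vM21 transcripts, GRCm38) show how far the reads of these genes can be told apart. The last 150 coding bases, stop codon included, are given 5′ to 3′ with capitals at the 39 positions where any pair differs.
Atp5g1: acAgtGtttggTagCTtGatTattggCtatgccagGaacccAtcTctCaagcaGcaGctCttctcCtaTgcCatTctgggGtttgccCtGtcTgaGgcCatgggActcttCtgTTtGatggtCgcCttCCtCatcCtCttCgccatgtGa
Atp5g2: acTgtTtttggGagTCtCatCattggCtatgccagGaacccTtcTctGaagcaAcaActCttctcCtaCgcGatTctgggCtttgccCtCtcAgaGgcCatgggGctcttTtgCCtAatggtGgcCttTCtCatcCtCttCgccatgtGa
Atp5g3: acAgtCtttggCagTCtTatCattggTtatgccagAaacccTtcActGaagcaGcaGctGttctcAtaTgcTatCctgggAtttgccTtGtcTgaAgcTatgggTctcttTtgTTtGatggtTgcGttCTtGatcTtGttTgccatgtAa
The translated ends are identical over 78 to 86 residues in each pair, and over those codons the genes differ at 36 to 54 bases, so short reads within the shared part mostly carry a base that separates the genes, though not everywhere.

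All 3 subunit c genes were higher at day 14 than in iHECs, by 1.59 for Atp5g1, 1.35 for Atp5g3 and 0.96 for Atp5g2. Of all genes that passed the filter 74.03% were higher too. Relative to their median difference of 0.93, these genes were at 0.66, 0.42 and 0.03. Atp5g1 was at 383 TPM in the median iHEC (65.4 to 1161) and at 1120 TPM at day 14 (541 to 1677), and Atp5g3 at 787 TPM (56.6 to 3472) and 1786 TPM (1211 to 2435). Their order was the same in every group. Over iHECs and the iHPC groups in order of time, Atp5g3 made up a median of 54.6%, 54.1%, 58.3% and 60.4% of the subunit c transcripts, Atp5g1 28.2%, 32.8%, 29.2% and 26.4%, and Atp5g2 16.9%, 13.1%, 13.2% and 13.6%. Single iHECs ranged widely, from 11.4% to 90.8% for Atp5g3.

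Complex I held members that stood higher at day 14 than in iHECs and members that stood lower. Ndufb8, Ndufa4 and Ndufa7 had the highest means over all cells. Ndufb8, an accessory subunit of the membrane arm, was at 1027, 1263, 882 and 1028 TPM in the median cell of iHECs, day 14, day 17 and day 21. Ndufa7, another accessory subunit, was at 1092 TPM in the median iHEC (268 to 2964) and at 556 TPM (332 to 1272), 542 TPM (119 to 810) and 626 TPM (188 to 1810) afterwards. Its difference from iHECs to day 14, -0.91, had the opposite sign to that of most ATP synthase genes.

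The catalytic core of complex I includes nuclear subunits that carry the flavin and the iron-sulphur clusters or line the path to quinone. Ndufs1 (ENSMUSG00000025968.16, chr1:63143596-63176833, minus strand), the largest of them, was at 1.64 TPM in the median iHEC (0 to 435) and above 1 TPM in 35 of 65 iHECs, whereas all 21 day-14 cells lay between 49.5 and 189 TPM with a median of 128 TPM. Day-17 cells were at 128 TPM (30.95 to 369) and day-21 cells at 86.6 TPM (0.397 to 274). The difference of 3.65 from iHECs to day 14 was the second largest of all members, and the median over all genes that passed the filter was 0.93. Ndufv1, which binds NADH and the flavin, was at 151, 262, 284 and 210 TPM in the median cells (difference 1.67 from iHECs to day 14) and Ndufs8, which carries iron-sulphur clusters, at 402, 625, 538 and 460 TPM (1.13). Ndufs3, Ndufs7 and Ndufv2 had differences of -0.21, 0.37 and -0.08 in that comparison. Transcripts of Ndufs1 and Ndufv1 are 2590 and 1661 bases long, against a median of 745 bases over 75 members. The median number of genes found was 4926 in iHECs and 8200 at day 14. The part of transcript length and of the number of genes found in these differences was not tested.

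Complex II is the only complex made wholly from nuclear genes and also a citric acid cycle enzyme. Sdha, the flavoprotein that oxidises succinate, was at 161 TPM in the median iHEC (0 to 649), 232 TPM at day 14 (52.2 to 281), 334 TPM at day 17 (204 to 555) and 179 TPM at day 21 (1.46 to 494). It was the member with the highest difference from day 14 to day 17 (0.77) and among the 3 lowest from day 17 to day 21 (-1.43). Sdhb, the iron-sulphur subunit, was at 585, 652, 690 and 891 TPM in the median cells, without the lower value at day 21. The membrane anchors Sdhc and Sdhd were at 386, 273, 299 and 357 TPM and at 550, 672, 624 and 777 TPM, with differences of -0.19 and 0.57 from iHECs to day 14.

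In complex III, which moves electrons from quinol to cytochrome c, the 3 members with the highest means were Uqcr11, Uqcrc1 and Uqcrb. Uqcrc1, a core subunit, was at 965, 889, 953 and 769 TPM in the median cells of the 4 groups and Uqcr11, a small subunit, at 787, 1059, 847 and 893 TPM. Uqcrb, which binds quinone, was at 847 TPM in iHECs (198 to 1912), 769 TPM at day 14 (416 to 2481), 481 TPM at day 17 (269 to 865) and 754 TPM at day 21 (246 to 4122). The groups overlapped in each of these genes. An exon of Uqcrb overlaps the predicted gene Gm10767.

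Complex IV, cytochrome c oxidase, was led by Cox4i1, Cox6a1 and Cox6b1. Cox4i1, the usual form of subunit 4, was at 1293 TPM in the median iHEC (265 to 2681), 2086 TPM at day 14 (1343 to 2881), 1387 TPM at day 17 (960 to 2096) and 1419 TPM at day 21 (394 to 2826). Cox6a1 was at 1016, 1369, 1285 and 1758 TPM and Cox6b1 at 1028, 1389, 1139 and 1431 TPM in the median cells. Cox8a, the usual form of subunit 8, had the largest difference of the usual forms from iHECs to day 14 (1.71), with 577 TPM in the median iHEC (2.37 to 2399) and 1598 TPM at day 14 (980 to 2370).

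Several complex IV subunits exist in a second form that is restricted to certain tissues or conditions. Some of these genes were among the members with the largest differences of the whole set. Cox4i2 (ENSMUSG00000009876.13, chr2:152754173-152765037, plus strand) is the form of subunit 4 known from lung and from low oxygen. Cells with more than 1 TPM of it numbered 25 of 65 among iHECs (38.5%, 26.6 to 51.4%), 19 of 21 at day 14 (90.5%, 69.6 to 98.8%), 17 of 18 for day 17 (94.4%, 72.7 to 99.9%) and 27 of 56 for day 21 (48.2%, 34.7 to 61.97%), where the range is the 95% interval by the exact method of Clopper and Pearson. Such intervals cover counting error only. They do not cover the number of genes found per cell, with a median of 4926 in iHECs and 8200 at day 14. The medians were 0, 109, 25.8 and 0 TPM, and the highest cells 344, 332, 188 and 152 TPM. Cox4i2 still gave only a median of 4.92% of the sum of Cox4i1 and Cox4i2 at day 14 (0 to 17.3%).

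Cox6a2 (ENSMUSG00000030785.8, chr7:128205435-128206387, minus strand), the heart and muscle form of subunit 6a, was above 1 TPM in 1 of 65 iHECs (1.5%, 0.04 to 8.28%) at 2.35 TPM, in 16 of 21 cells at day 14 (76.2%, 52.8 to 91.8%), 13 of 18 a few days later (72.2%, 46.5 to 90.3%) and 13 of 56 for day 21 (23.2%, 12.98 to 36.4%). The medians were 0, 11.4, 13.9 and 0 TPM and the highest cells of the iHPC groups 109, 367 and 46.02 TPM. An exon of Cox6a2 overlaps Itgad, an integrin gene, which was above 1 TPM in 0, 1, 4 and 6 cells of these groups. The part of Itgad reads in the Cox6a2 values was not tested.

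Cox7a1, the heart and muscle form of subunit 7a, differed the other way (ENSMUSG00000074218.3, chr7:30184144-30186078, plus strand). It was above 1 TPM in 33 of 65 iHECs (50.8%, 38.1 to 63.4%), then in 11 of 21 (52.4%, 29.8 to 74.3%), 8 of 18 (44.4%, 21.5 to 69.2%) and 9 of 56 iHPCs (16.1%, 7.62 to 28.3%) in order of time. The share of cells was much the same in iHECs and at day 14, and it was the mean of log2(TPM + 1) that was lower at day 14, by 1.57. A highest cell also depends on how many cells a group has. The highest cells were at 355 TPM among iHECs and at 28.05, 42.3 and 38.97 TPM among iHPCs, and Cox7a1 gave up to 49.9% of the sum of Cox7a1 and Cox7a2 in a single iHEC against at most 4.99%, 10.1% and 10.5% later. Cox6b2, the testis form of subunit 6b, was above 1 TPM in 36 of 65, 9 of 21, 6 of 18 and 10 of 56 cells, with highest cells at 507, 52.9, 51.7 and 45.98 TPM.

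Ndufa4l2, a paralog of Ndufa4 known from low oxygen, was above 1 TPM in 12 of 65 iHECs (18.5%, 9.92 to 30.03%) with a highest cell at 536 TPM. At day 14 this held for 0 of 21 cells, which allows a share of up to 14.3%, at day 17 for 2 of 18 and on the last day for 0 of 56, which allows up to 5.36%. Its exon overlaps Shmt2, the mitochondrial serine hydroxymethyltransferase gene, which had medians of 3.0, 521, 491 and 222 TPM. Which of these genes the reads came from was not tested. The usual partners Cox4i1, Cox6a1, Cox6b1, Cox7a2 and Ndufa4 were above 1 TPM in all 160 cells.

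**Figure D3:**
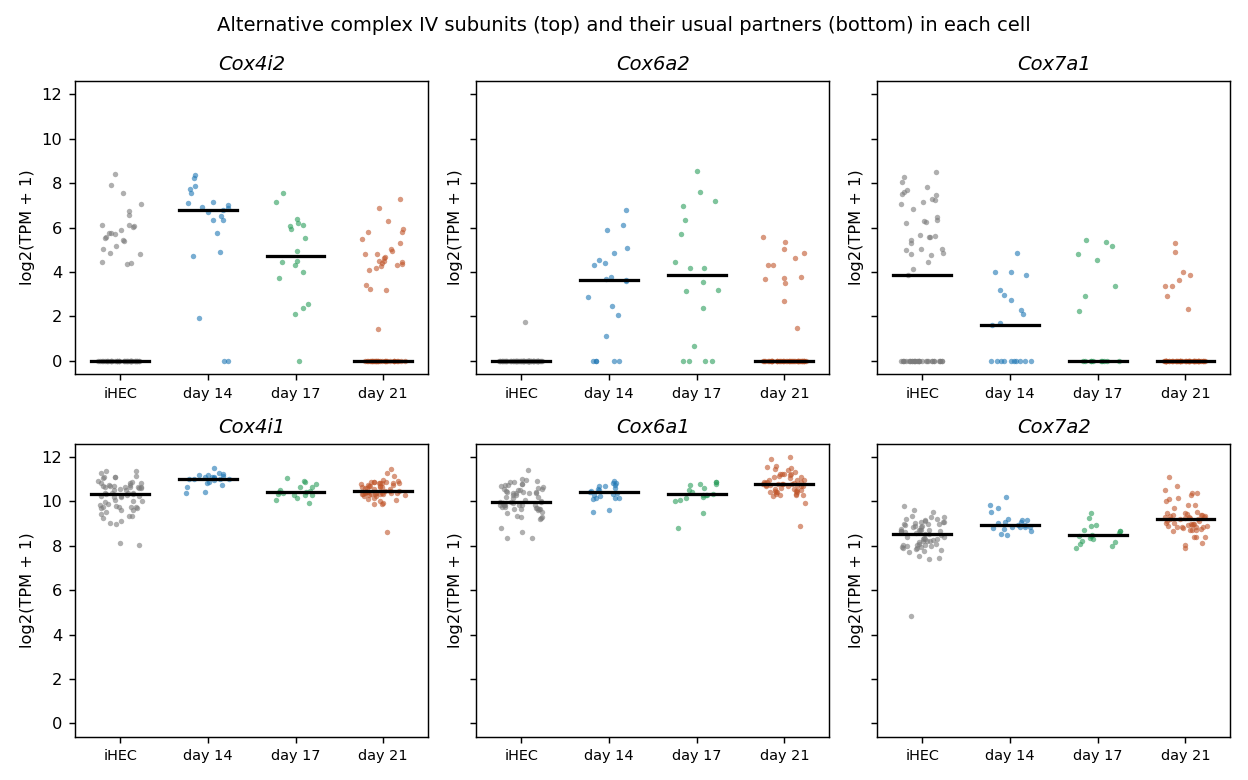
Level of 3 alternative complex IV subunits (top) and of their usual partners (bottom), as log2(TPM + 1) (y axis, the same scale in all panels), in every cell by group (x axis), with the group median as a bar. Cox4i2 and Cox6a2 are at 0 in the median iHEC and at 109 and 11.4 TPM in the median day-14 cell, and Cox7a1 reaches 355 TPM among iHECs and at most 42.3 TPM among iHPCs.

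Counted over all members, the difference of group means from iHECs to day 14 was above 0 for 54 of the 80 members that passed the filter, with a mean of 0.46 over all 84. Of all 9674 genes 74.03% lay above 0. A difference of at least 1 on the log2 scale was reached upward by 18 members, where 48% of all 9674 genes reached it, and downward by 5, where 11.5% did. The median gene was higher by 0.93 in the day-14 cells, in which more genes were found. Relative to the median gene, 6 members were at least 1 higher (27.3% of all genes) and 24 at least 1 lower (24.4% of all genes), of which 14 belonged to complex I. The counts of 5 and 24, and that of 14, include Ndufa4l2, which did not pass the filter behind the shares of all genes. By complex, the median difference was 0.21 for complex I, 0.51 for complex II, 0.52 for complex III, 0.36 for complex IV and 0.96 for complex V. Relative to the median gene it was -0.71 for complex I and 0.03 for complex V. Of the 17 complex V members 8 were at least 1 higher without the median subtracted, where 48% of all genes were. The relative values depended on the pseudocount, the filter and the cells used. The count of 24 became 11 (25.05% of all genes) with only cells that had at least 5000 genes above 1 TPM, 61 (32.6%) with a pseudocount of 0.1 and 6 (11.04%) with a pseudocount of 10. The mean over members was -0.47 with a pseudocount of 1, 0.15 with a pseudocount of 10 and 0.46 with no filter, under which the median gene did not differ.

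The 3 highest differences were those of Cox4i2 (3.68), Ndufs1 (3.65) and Cox6a2 (3.08), and the 3 lowest those of Cox7a1 (-1.57), Cox6b2 (-1.53) and Ndufa4l2 (-1.19). Of these 6, 5 are alternative subunit forms.

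**Figure D4:**
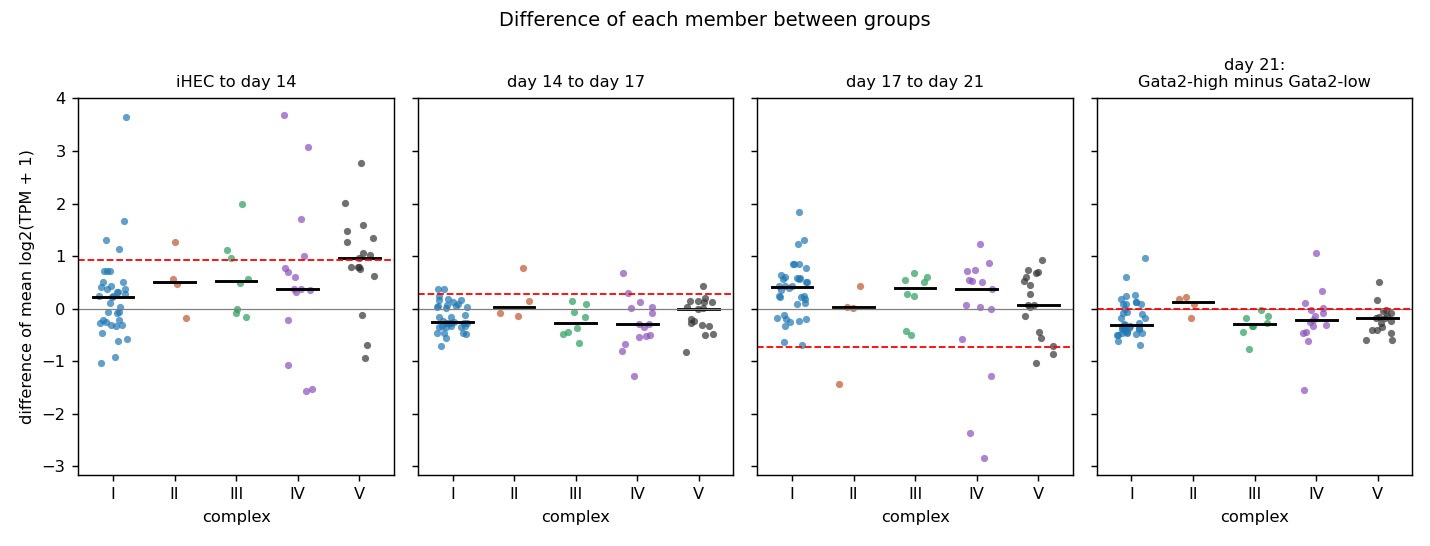
Difference of the group means of log2(TPM + 1) (y axis) for each of the 80 members that passed the filter, by complex (x axis) and comparison (panels), later minus earlier group and Gata2-high minus Gata2-low. Bars are medians by complex, the grey line is 0 and the red dashed line is the median over all 9674 genes, which is 0.93, 0.28, -0.74 and 0.00 from left to right.

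From day 14 to day 17 the members differed little. The mean difference was -0.15 over the 84 members, 0 were at least 1 higher (15.5% of all genes) and 1, Cox4i2, was at least 1 lower (3.89% of all genes). The median gene was 0.28 higher at day 17. Relative to it 0 members were at least 1 higher (9.03% of all genes) and 3 at least 1 lower (7.09% of all genes), these being Cox4i2 (-1.56), Atp5k (-1.1) and Cox7c (-1.09). The 3 highest differences were those of Sdha (0.77), Cox6a2 (0.67) and Atp5h (0.43), and the lowest without the median subtracted those of Cox4i2 (-1.28), Atp5k (-0.82) and Cox7c (-0.82). With median-of-ratios scaling in place of TPM the mean difference was 0.01, so its direction depends on the scaling.

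From day 17 to day 21 most members were higher while most genes were lower. The median gene differed by -0.74 and only 17.8% of the 9674 genes had a difference above 0, whereas the members had a mean difference of 0.16 and 57 of the 80 lay above 0. At least 1 higher were 4 members (2.33% of all genes) and at least 1 lower were 5 (38.5% of all genes). Relative to the median gene, 42 members were at least 1 higher (10.3% of all genes), 20 of them in complex I and 8 each in complexes IV and V, and 2 at least 1 lower (13.1% of all genes), which were Cox6a2 and Cox4i2. The count of 42 became 27 (8.54% of all genes) when only cells with at least 5000 genes above 1 TPM were used. It became 12 (2.35%) with a pseudocount of 10, 65 (20.3%) with a pseudocount of 0.1 and 4 (1.17%) with no filter. In no comparison were the members matched to all genes by level. The median cell had 8101 genes above 1 TPM at day 17 and 6695.5 at day 21, but 78.5 and 76 members. The part of level in the counts relative to the median gene was not tested.

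Ndufs5 (chr4:123712710-123718202, minus strand), an accessory subunit of complex I, had the highest difference from day 17 to day 21 (1.83). It was at 53.5 TPM in the median iHEC (0.652 to 215), 21.2 TPM at day 14 (3.88 to 325), 18.1 TPM at day 17 (10.8 to 39.3) and 67.2 TPM at day 21 (21.8 to 1012). The other 2 of the highest 3 were Ndufa1 (1.3), another accessory subunit of complex I, at 279 and 548 TPM in the median day-17 and day-21 cell, and Cox7c (1.24), a small subunit of complex IV, at 430 TPM (173 to 635) and 867 TPM (480 to 2613). The lowest were Cox6a2 (-2.84), Cox4i2 (-2.38) and Sdha (-1.43).

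Members with short transcripts stood higher at day 21 than members with long ones. Over 75 members with a known length, leaving out the alternative forms, Spearman's rho between transcript length and the difference from day 17 to day 21 was -0.62, and over 8892 genes it was -0.16. These are correlations across genes, which share the same cells and are not independent. The median difference was 0.52 for the 48 members under 1000 bases and 0.02 for the 27 longer ones, against 0.07 and -0.82 for all genes of these lengths. In the step from day 14 to day 17 the order was the reverse (rho 0.42), and from iHECs to day 14 it was weaker (0.21). The median length was 745 bases over the members and 2674 over all genes. In the 56 day-21 cells the summed TPM of the members was higher where fewer genes were found (r = -0.74), and the cell with the highest sum, 87624 TPM, had 3188 genes above 1 TPM. The part of transcript length and of the number of genes found in the day-21 values was not tested.

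**Figure D5:**
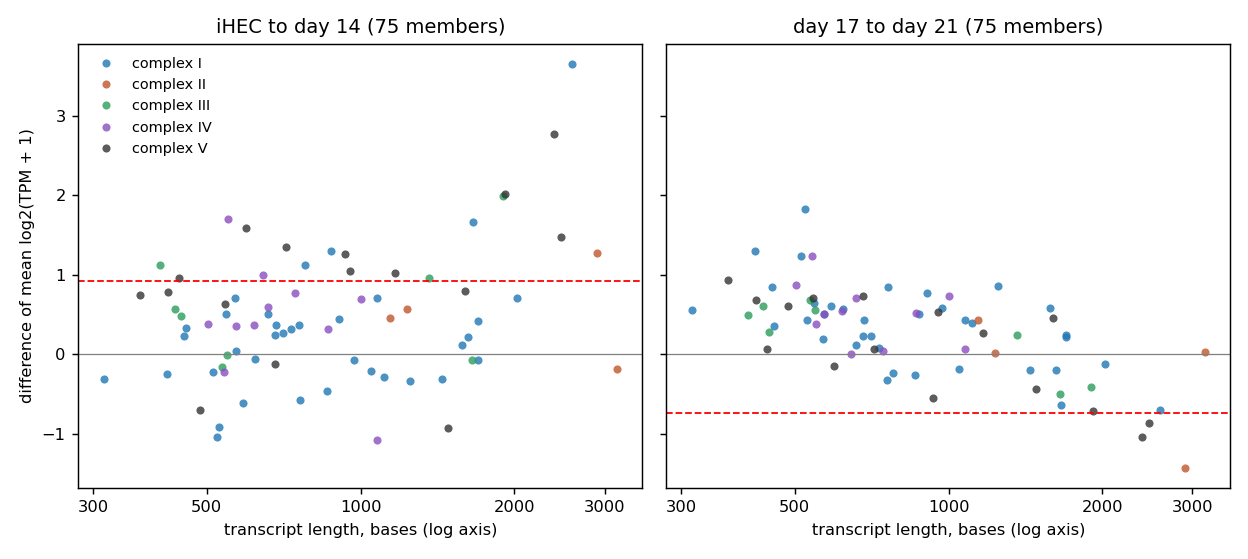
Difference of the group means of log2(TPM + 1) (y axis) against transcript length in bases (x axis, log axis) for 75 members, coloured by complex, from iHECs to day 14 (left) and from day 17 to day 21 (right). The red dashed lines mark the median gene at 0.93 and -0.74. On the right the points go down with length (rho -0.62), on the left they do not (rho 0.21).

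The day-21 cells fall into 2 sets by Gata2, a transcription factor of stem, progenitor and mast cells. The cut of 31 TPM left 22 Gata2-high cells (66.0 to 1739 TPM) and 34 Gata2-low cells (0 to 9.18 TPM), with 0 cells between 10 and 60 TPM. The Gata2-high cells carried mast cell markers, 9 genes that summed to 49023 TPM in the median cell (1651 to 100945) against 1002 TPM (83.8 to 4654) in the Gata2-low cells, and this list includes Gata2 itself, which made the split. The mast cell tryptase gene Tpsb2 was listed at 0 in every day-21 cell. T lymphoid markers (8 genes) summed to 41.5 TPM in the median Gata2-high and 1338 TPM in the median Gata2-low cell. Of 6 innate lymphoid markers 1 was at least 1 higher in the Gata2-high cells, Gzmb (8.33), and 1 at least 1 lower, Gzma (-5.32). Of 8 neutrophil or monocyte markers 1 was higher, Ctsg (8.02), and 1 lower, Prtn3 (-1.28). The part of these markers in the values below was not tested.

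Between these sets the respiratory chain genes differed little. The sum of all members was 47718 TPM in the median Gata2-high cell (33932 to 65775) and 50069 TPM in the median Gata2-low cell (40149 to 87624). The 50 most abundant other genes took 19.1% and 15.1% of the transcripts of the median cells, and with those genes left out of the scaling the medians were 59008 and 59084 TPM. Complex V over complex I was 0.851 (0.585 to 1.08) and 0.907 (0.625 to 1.04). The number of genes above 1 TPM was 6665.5 and 6769.5 in the median cells.

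The mean difference of the members, Gata2-high minus Gata2-low, was -0.18, and 19 of the 80 members lay above 0 (49.3% of all genes), while the median gene differed by 0.00. With median-of-ratios scaling the mean was 0.05, so the direction depends on the scaling. At least 1 higher was 1 member, Cox4i2 (13% of all genes), and at least 1 lower was 1 member, Cox6a2 (10.2% of all genes). Both are alternative complex IV forms. Cox6a2 was above 1 TPM in 0 of 22 Gata2-high cells, which allows a share of up to 13.6%, and in 13 of 34 Gata2-low cells (38.2%, 22.2 to 56.4%), up to 46.02 TPM. Cox4i2 was above 1 TPM in 12 of 22 (54.5%, 32.2 to 75.6%) and 15 of 34 cells (44.1%, 27.2 to 62.1%), with medians of 14.9 and 0 TPM, and these intervals overlap.

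Among the other members Ndufa10, an accessory subunit of complex I, was higher in the Gata2-high cells (difference 0.97), at 474 TPM (146 to 753) against 280 TPM (8.88 to 663). Ndufa8, another accessory subunit, had a difference of 0.60 but medians of 390.2 and 383 TPM, since low cells reached 6.94 TPM in the Gata2-low set. Uqcrb was lower (-0.76), at 615 TPM (246 to 1087) against 861 TPM (494 to 4122), and Ndufs8 was lower (-0.69), at 334 TPM (96.9 to 690) against 540 TPM (265 to 1360). The Gata2-high and Gata2-low sets overlapped in each of these genes. In complex III 0 of the 8 members had a difference above 0, against 19 of the 80 members and 49.3% of all genes. The direction of the mean over all members depended on the scaling, as given above.

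Other genes of the pathway outside the name rule were described by 9 lists with 75 genes in the table. Most assembly factors and enzymes had a difference above 0 from iHECs to day 14. Of 13 complex I assembly factors, 11 were at least 1 higher and 0 at least 1 lower, from Tmem126b (0.13) to Ndufaf2 (4.6), a chaperone of late complex I assembly that was at 0 TPM in the median iHEC and at 157 TPM at day 14 (79.1 to 330). Of 14 complex IV assembly factors 9 were at least 1 higher and 0 lower, from Cox14 (-0.72) to Cox18 (3.31). Both complex II factors, 2 of 3 complex III factors and 2 of 3 complex V factors were at least 1 higher. The share of all genes at least 1 higher was 48% and that at least 1 lower 11.5%, as given above for the members. Relative to the median gene, 8 complex I factors were at least 1 higher and 0 lower. Of the complex IV factors 6 were then higher and 3 lower. The shares of all genes by that rule were 27.3% and 24.4%. The complex I factors summed to 559 TPM in the median iHEC and 694 TPM at day 14. Sums of the complex II, III and V factors were also higher at day 14, while the complex IV factors took 1686 and 1256 TPM. The part of the number of genes found, with a median of 4926 in iHECs and 8200 at day 14, was not tested.

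Of the 13 enzymes of the citric acid cycle, which feeds NADH and succinate to the chain, 11 were at least 1 higher at day 14 (48% of all genes). At least 1 lower were 0 (11.5% of all genes). Relative to the median gene, 7 were at least 1 higher (27.3% of all genes) and 1, Sucla2, at least 1 lower (24.4% of all genes). Dlst, a subunit of the 2-oxoglutarate dehydrogenase complex, was at 0 TPM in the median iHEC (0 to 170) and at 108 TPM at day 14 (43.4 to 180), while Sucla2, a subunit of succinyl-CoA ligase, was at 223 and 136 TPM. From day 17 to day 21, 0 of the 13 were at least 1 higher (2.33% of all genes) and 6 at least 1 lower (38.5% of all genes), the lowest being Suclg2 (-2.64). Of the subunits themselves 5 of 84 were at least 1 lower in that step. The difference between the lists was not tested.

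Regulators of mitochondrial biogenesis, 13 genes, had 9 members at least 1 higher (48% of all genes) and 1 at least 1 lower (11.5% of all genes) at day 14. Their summed TPM was 247 in the median iHEC and 264 at day 14. Polrmt, the RNA polymerase of mitochondria, had the highest difference (2.98), at 0 TPM in the median iHEC (0 to 101) and 16.9 TPM at day 14 (0 to 64.1), and Polg, the mitochondrial DNA polymerase, the lowest (-1.10). Ppargc1a, the coactivator known for inducing mitochondria, was above 1 TPM in 4 of 65, 1 of 21, 1 of 18 and 2 of 56 cells. Among carriers and the ATP synthase inhibitor (8 genes), Ucp2, an inner membrane carrier, had the highest difference from iHECs to day 14 (4.63), with medians of 0.415, 141, 288 and 290 TPM in the 4 groups. Among 6 electron carriers and subunits outside the name rule, Cyc1, the cytochrome c1 subunit of complex III, had the highest (2.47), with medians of 257 TPM in iHECs (0 to 909) and 911 TPM at day 14 (421 to 1484).

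In the last step 0 complex I assembly factors were at least 1 higher and 5 lower, led by Acad9 (-2.07). Of the complex IV factors 1 was higher, Cox20 (1.40), and 5 lower, led by Sco1 (-2.12). Of all genes 2.33% were at least 1 higher and 38.5% at least 1 lower. The complex I factors summed to 708 TPM in the median day-17 cell and 633 TPM at day 21, the complex IV factors to 1125 and 1453 TPM. Of the regulators 7 of 13 were at least 1 lower, led by Polrmt (-2.17), and of the carriers and inhibitor 1, Vdac1 (-1.05), while Atpif1, the inhibitor of ATP synthase, differed by 0.66. From day 14 to day 17 those of the 75 listed genes with a difference of at least 1 were Etfdh (1.59), which passes electrons to quinone, Polg (1.33), Sco2 (1.33), Ucp2 (1.16), Coa5 (1.14), Tfb1m (1.02) and Ttc19 (-1.21), a complex III assembly factor. Of all genes 15.5% were at least 1 higher and 3.89% at least 1 lower in that step. Between the Gata2 sets those of the 75 genes with a difference of at least 1 were Acad9 (-1.85), Ndufaf2 (-1.55), Sco2 (1.36), a copper chaperone of complex IV, Yy1 (1.35), Etfdh (-1.32) and Cox19 (1.29). Of all genes 13% were at least 1 higher and 10.2% at least 1 lower in the Gata2-high cells.

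Promoters from RefSeq (GRCm38.p6, 250 bases before to 50 after the start) were matched for 69 of the 84 members and, at every start listed for a gene, searched on both strands for the letters of 4 motifs. The letters CGCANGCG, the core bound by the respiratory regulator NRF1, were found in 26 members (37.7%), in 9.22% of 27025 genes and in 21.7% of 7249 genes of the table that passed the filter. AAGATGGC, the core of YY1, was found in 11 (15.9%, against 3.19% and 6.12%), CCGGAAG, the ETS core that GABP binds, in 16 (23.2%, against 9.93% and 23.1%) and GGGCGG, the GC box, in 28 (40.6%, against 38.2% and 71.5%). The NRF1 letters were found in 10 of 16 complex V, 10 of 32 complex I, 2 of 3 complex II, 3 of 5 complex III and 1 of 13 complex IV promoters. A match describes letters and not binding, and no test was made.

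The upstream sequences of 3 members with different patterns are shown, in lower case with the motif letters found on either strand in capitals and ending before the start of the GENCODE gene. Atp5b was higher at day 14, Cox6a1 was high in all groups and Cox7a1 was at its highest among iHECs.
Atp5b, chr10:128083057-128083272, plus strand: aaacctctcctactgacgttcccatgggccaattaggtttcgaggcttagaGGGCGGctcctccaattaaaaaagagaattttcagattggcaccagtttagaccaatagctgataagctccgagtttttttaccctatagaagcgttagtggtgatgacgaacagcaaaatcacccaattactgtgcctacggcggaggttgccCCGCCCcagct
Cox6a1, chr5:115348982-115349208, minus strand: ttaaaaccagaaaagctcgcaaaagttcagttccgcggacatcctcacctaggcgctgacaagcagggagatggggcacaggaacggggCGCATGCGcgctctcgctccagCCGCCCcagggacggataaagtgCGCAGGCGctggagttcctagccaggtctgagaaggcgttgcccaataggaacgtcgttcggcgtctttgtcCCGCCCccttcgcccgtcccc
Cox7a1, chr7:30183921-30184143, plus strand: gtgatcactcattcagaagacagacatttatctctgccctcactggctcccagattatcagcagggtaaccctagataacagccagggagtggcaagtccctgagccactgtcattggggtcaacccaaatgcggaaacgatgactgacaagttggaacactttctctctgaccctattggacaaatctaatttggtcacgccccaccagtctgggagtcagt
The Cox6a1 stretch held the NRF1 letters at 2 places and the GC box at 2, Atp5b the GC box at 2 and Cox7a1 none of the motifs.

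How far the members varied together from cell to cell was described by the correlation of their levels. Within the 4 groups in order of time the median Pearson's r over pairs of members found above 1 TPM in at least 90% of the cells of the group (71 to 76 members) was 0.07, 0.13, 0.34 and 0.16, against 0.01, 0.06, 0.0036 and 0.08 over pairs of all genes found as often. No test was made. Pairs share cells, scaling and the number of genes found. Over the 160 cells, the genes outside the set whose level was most like the mean of the members were Smim4 (r = 0.70), Rpl38 (0.68), Rps9 (0.66), Nme1 (0.66) and Rps10 (0.64), 3 of which encode ribosomal proteins. The groups of cells differ in both measures.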

How the data were processed

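Single sorted cells were profiled by RNA sequencing. According to the study's methods, the authors made cDNA with the Discover-sc WTA Kit V2, went on with cells in which B2m and Gapdh were found by qPCR, and aligned reads to mm10 with HISAT2 before estimating TPM with StringTie. The submitters' processing notes name HISAT2 2.1.0, SAMtools 0.1.19 and StringTie 1.3.4. Which of the 2 sequencers named was used is not clear. The deposited TPM values summed to 988686 to 999108 per cell and keep no read counts or depth, so no count test was possible and low values cannot be given a depth. 0 sample columns were left unused.

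Values were analysed as log2(TPM + 1). Groups came from the labels, 1 sample each. Differences are between group means, later minus earlier, also relative to the median of 9674 genes above 1 TPM in more than 30 of 160 cells. Shares carry exact Clopper-Pearson 95% intervals, and with 0 cells the limit is 3 cells of the total. Transcript lengths and positions came from GENCODE vM21 (GRCm38), using the shortest principal coding transcript of a gene. Python 3.11.15, numpy 2.4.6, pandas 2.3.3 and scipy 1.17.1 were used. Group means, the median gene and the count past 1 were checked on simulated cells for the steps in time. The simulated log2 values were normal, without genes missed in some cells or a shift in the number of genes found. Sums, ratios, length correlations, motifs and the Gata2 split were not checked in this way.

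Named were, per complex, the 3 members with the highest means, per comparison the 3 members with the highest and the 3 with the lowest differences, members of the complex I core (1 result is not reported here), complex II, alternative forms with partners, subunit c, the extreme genes of each pathway list, and the 5 outside genes most like the members. Itgad, Shmt2, Atp5a1, Tpsb2, Gzmb, Gzma, Ctsg, Prtn3, Cox19, Coa5 and Tfb1m were named after their values were seen. Members, lists and the Gata2 cut were chosen with earlier results of these data known. Alternatives were pseudocounts of 0.1 and 10, median-of-ratios size factors from 467 genes, no filter, medians over cells, cells with at least 5000 genes, leaving out alternative forms, other Gata2 cuts, scaling without the 50 highest genes and a detection threshold of 10 TPM. The check without cells whose pan-leukocyte sum stood apart from their group and those of the complex V to complex I ratio were added after the data had been seen.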

Additional observations from a re-analysis of the deposited data

How the results depend on the processing

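No paired analysis was possible because the replicate numbers only name cells. Groups held more than 5 cells, so no cell was left out in turn. For the mean of the members relative to the median gene, the iHEC to day 14 value of -0.47 became -1.28 with a pseudocount of 0.1, 0.15 with a pseudocount of 10 and 0.46 with no filter, and the day 17 to day 21 value of 0.89 became 1.295, 0.51, 0.16 and, with medians over cells, 0.66. With median-of-ratios size factors the mean difference turned from -0.15 to 0.0119 (day 14 to day 17) and from -0.18 to 0.054 (Gata2-high minus Gata2-low), and the latter relative to the median gene turned to 0.0086 in cells with at least 5000 genes. Counts from iHEC to day 14 were 6 higher and 24 lower members. They became 18 higher and 5 lower with no filter, and the lower count 61 and 6 with pseudocounts of 0.1 and 10, 37 with medians and 11 in cells with at least 5000 genes. From day 14 to day 17 the 3 lower members became 5, 1 and 1 with pseudocounts of 0.1 and 10 and no filter. From day 17 to day 21 the 42 higher members became 65, 12, 4, 27 and 27 with pseudocounts of 0.1 and 10, no filter, medians and cells with at least 5000 genes, and the 2 lower members 1, 5 and 0 with a pseudocount of 10, no filter and without alternative forms. For Gata2 the 1 higher member became 2 with size factors and 0 with a pseudocount of 10, cells with at least 5000 genes, without alternative forms and with cuts of 1 and 100 TPM, and the 1 lower member 2 with a pseudocount of 0.1 and 0 with a pseudocount of 10, medians and without alternative forms. The cause of these shifts was not tested. Scaling without the 50 highest genes moved the summed TPM to 58440 at day 14, 48929 at day 17 and 59008 in Gata2-high cells. Complex V over complex I moved to 0.715, 0.720, 0.706, 0.706 and 0.702 without Atp5a1 and Atp5b at day 14, day 17, day 21, Gata2-high and Gata2-low, and with short transcripts to 0.427 in iHECs and 0.708, 0.708, 0.679, 0.659 and 0.699, while day 14 over iHECs stayed at 1.57 to 1.79. The other 147 values under alternatives kept their direction and moved by less than the SD between cells or, for counts and ratios, by at most 1.5 times. Among them were all 16 differences and counts without the 6 cells whose pan-leukocyte sum stood apart from their group. Some of the 147 could not change. Those 6 cells include 0 day-21 cells, so the Gata2 values stayed as they were. A Gata2 cut of 10 TPM gave the same sets as 31 TPM, and the filter does not enter the mean difference before the median gene is subtracted. TPM keeps no depth, so genes listed at 0 in shallow cells cannot be told from genes not expressed.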
